A study of Mus musculus with 3 samples.

Results

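The cells described here are immune cells, most of them with macrophage markers, of the mouse kidney at E14.5, a stage of embryonic development at which new nephrons are forming. They were picked out of 3 single-cell RNA libraries by their own marker genes. A cell was taken when it had 500 or more detected genes, 3 or more of the 6 genes Ptprc, Tyrobp, Fcer1g, Lyz2, C1qb and Csf1r detected, and fewer than 3 of the 6 endothelial genes Pecam1, Kdr, Plvap, Emcn, Egfl7 and Fabp4. A gene counted as detected with 1 or more unique molecular identifiers (UMIs, tags that mark single transcripts), or with 20 or more reads in the C1 library, which has no UMIs. This gave 56 immune-rule cells of 5110 cells, or 1.10% (exact binomial 95% interval 0.829% to 1.42%). All kidneys were wild-type and of a mixed strain, mostly CD-1 and 129, and the labels name no treatment. Drop-seq and 10x Chromium capture cells in droplets, and Fluidigm C1 captures them in the chambers of a chip. Each platform gave 1 library, so there was no replicate library within a platform, and the labels do not say whether the libraries came from separate embryos. The names of the C1 cells fall into 2 groups, one marked HT with 562 cells and one marked E14 with 332, whose meaning is not stated, and these held 6 and 5 of the cells described. Throughout, 3 values in a row are those of Drop-seq, 10x and C1, in that order.

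Macrophages take up dead cells and debris, digest them in lysosomes and read their surroundings through receptors for antibodies, complement and lipids. Many of these receptors signal through the adaptor chains encoded by Tyrobp and Fcer1g. In the embryo the first tissue macrophages come from the yolk sac, and later ones descend from fetal liver monocytes. Their survival rests on Csf1r, the receptor for the growth factors Csf1 and Il34. In the developing kidney macrophages are known to clear misplaced and dying cells and to lie next to young vessels. The transcription factor PU.1, encoded by Spi1, directs the myeloid lineage and binds purine-rich DNA around the core GAGGAA.

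PU.1-type sequence near the start of genes of these cells is shown first, because Spi1 is among the genes described below. The letters GAGGAAGT, searched on both strands, stood in 3.20% of all 32851 promoter windows of RefSeq (assembly GRCm38.p6, 300 bases, from 250 before to 50 after a gene's start). They stood in 9.64% of the 467 windows of genes called higher in immune-rule cells in the comparison below, in 0.877% of the 342 windows of genes called lower, and in 3.02% of the windows of all genes tested. The shorter core GAGGAA, which every GAGGAAGT contains, differed less as a ratio of these shares. It stood in 37.3% of the windows of genes called higher, 28.1% of those of genes called lower and 26.4% of those of all genes tested. Of the 6 immune genes of the rule, 4 had a window, and of these 5 windows 0 held GAGGAAGT and 2 held GAGGAA. Some genes have several windows, and 368 of the 478 genes called higher had at least 1, and a match of letters is a description, not a binding site. Of 109 genes named by the rules in use here, 79 had a window and 7 of these held the letters: Ly6c2, C1qc, Cd53, Ctsc, F13a1, Pf4 and S100a8. Printed are 3 of the called ones, from 250 bases before the start to the 25th base from it on, 5′ to 3′ on the gene's strand. Capitals mark GAGGAAGT or its complement read backwards, ACTTCCTC.
Ctsc, chr7:88277835-88278109, plus strand: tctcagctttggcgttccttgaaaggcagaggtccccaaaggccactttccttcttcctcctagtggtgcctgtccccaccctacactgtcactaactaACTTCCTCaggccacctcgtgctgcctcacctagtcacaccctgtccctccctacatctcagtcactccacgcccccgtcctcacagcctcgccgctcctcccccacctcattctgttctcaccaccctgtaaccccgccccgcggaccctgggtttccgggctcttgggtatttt
F13a1, chr13:37049189-37049463, minus strand: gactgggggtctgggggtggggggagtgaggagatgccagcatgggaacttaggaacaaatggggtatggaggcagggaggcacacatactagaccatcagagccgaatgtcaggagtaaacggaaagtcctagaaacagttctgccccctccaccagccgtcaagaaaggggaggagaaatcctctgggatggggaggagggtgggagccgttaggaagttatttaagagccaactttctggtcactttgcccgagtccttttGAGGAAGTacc
Pf4, chr5:90772185-90772459, plus strand: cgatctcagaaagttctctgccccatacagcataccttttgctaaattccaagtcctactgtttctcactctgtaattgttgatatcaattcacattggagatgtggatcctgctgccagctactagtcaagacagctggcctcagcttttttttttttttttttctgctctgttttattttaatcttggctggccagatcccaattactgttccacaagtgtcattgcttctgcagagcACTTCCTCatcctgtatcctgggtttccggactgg
Ctsc encodes a lysosomal protease that activates other proteases, F13a1 the transglutaminase chain of clotting factor XIII, and Pf4 a chemokine of platelets that many tissue macrophages also make. Their levels follow below with those of the other genes.

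Immune-rule cells were found in every library. Drop-seq held 13 of 1964 cells (0.662%, exact binomial 95% interval 0.353% to 1.13%), 10x 32 of 2252 (1.42%, 0.974% to 2.0%) and C1 11 of 894 (1.23%, 0.616% to 2.19%). The intervals cover counting error only, and with 1 library per platform the shares were not tested against each other. No cell barcode was shared between libraries, and 79 barcodes fell below the gene minimum. The median immune-rule cell had 5704 UMIs, 6471 UMIs and 147616 reads, and the median of all other cells 7062, 7204.5 and 167646. The summed counts behind each level were 90186 UMIs, 207746 UMIs and 2176638 reads. In C1 a single cell of 869133 reads gave 39.9% of all reads of the immune-rule cells. The endothelial cells used as a second reference had 3 or more of the 6 endothelial genes and fewer than 3 of the immune ones, and numbered 116, 440 and 67.

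The 6 genes of the rule chose the cells, so their levels are given with no test, in CPM, which is the count of a gene in the summed cells of a group scaled to a total of 1000000. Fcer1g, the shared signalling chain of Fc receptors, stood at 1453, 2407 and 1598 CPM in immune-rule cells and 1.25, 1.80 and 4.06 CPM in all other cells. Tyrobp, the adaptor DAP12, stood at 1098, 2262 and 1058 CPM in immune-rule cells and 0.849, 1.47 and 2.42 CPM in all other cells. C1qb, a chain of the complement starter C1q, stood at 1275, 1574 and 1509 CPM in immune-rule cells and 0.170, 0.564 and 2.86 CPM in all other cells. Fcer1g was detected in all 56 cells and Tyrobp in 12 of 13, 32 of 32 and 10 of 11. The other genes of the rule were more uneven over the platforms. Lyz2, the lysozyme of myeloid cells, stood at 732, 2412 and 165 CPM in immune-rule cells and 0.283, 0.676 and 0.635 CPM in all other cells. Csf1r stood at 299, 529 and 234 CPM and Ptprc, the leukocyte antigen CD45, at 133, 168 and 68.0 CPM. Ptprc was detected in only 6, 19 and 3 of the cells. At the edge of the rule, 7 cells had exactly 3 of the 6 genes and 15 cells left outside had exactly 2. All of the 7 and 11 of the 15 had Fcer1g, and 6 of the 7 and 7 of the 15 had Tyrobp. C1qb was in 2 of each, and Csf1r in 1 of the 7 and 2 of the 15. A cell of C1 with 3 or more genes of both sets was left out by the rule.

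The macrophage label held for most of the cells on markers that the rule did not use. Of 12 macrophage markers, among them Adgre1, Cx3cr1, C1qa, C1qc, Mrc1, Aif1, Cd68, Fcgr1, Spi1, Ctss and Trem2, 3 or more were detected in 48 of the 56 immune-rule cells, namely 11 of 13, 28 of 32 and 9 of 11. In all other cells this was so in 1 of 1951, 0 of 2220 (which allows a share of up to 0.135%) and 1 of 883. Among 6 monocyte markers, 3 or more were detected in 10 cells (1, 9 and 0), and among 8 neutrophil markers in 3 cells (1, 2 and 0). The monocyte count alone does not mark a cell as a monocyte. Of that list, Chil3 had no count in immune-rule cells, and Ly6c2 was not called in the comparison below. F13a1 was in 28 of the 41 cells with 2 or more C1q genes. Cells with Plac8 and no C1q gene made up 22.1%, 29.5% and 14.3% of all other cells. No immune-rule cell had 3 or more markers of mast cells and basophils, dendritic cells, T, NK and innate lymphoid cells, B cells, or megakaryocytes and platelets (0 of 56, which allows a share of up to 5.36%). Blood cells with fewer than 3 of the 6 immune genes detected were kept out by the rule. This 0 therefore does not describe how many cells of those types the kidney held. The cells are therefore called immune-rule cells here, with macrophage markers in most of them. In 4 cells, 2 each from 10x and C1, none of the macrophage, monocyte and neutrophil lists reached 3.

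**Figure D1:**
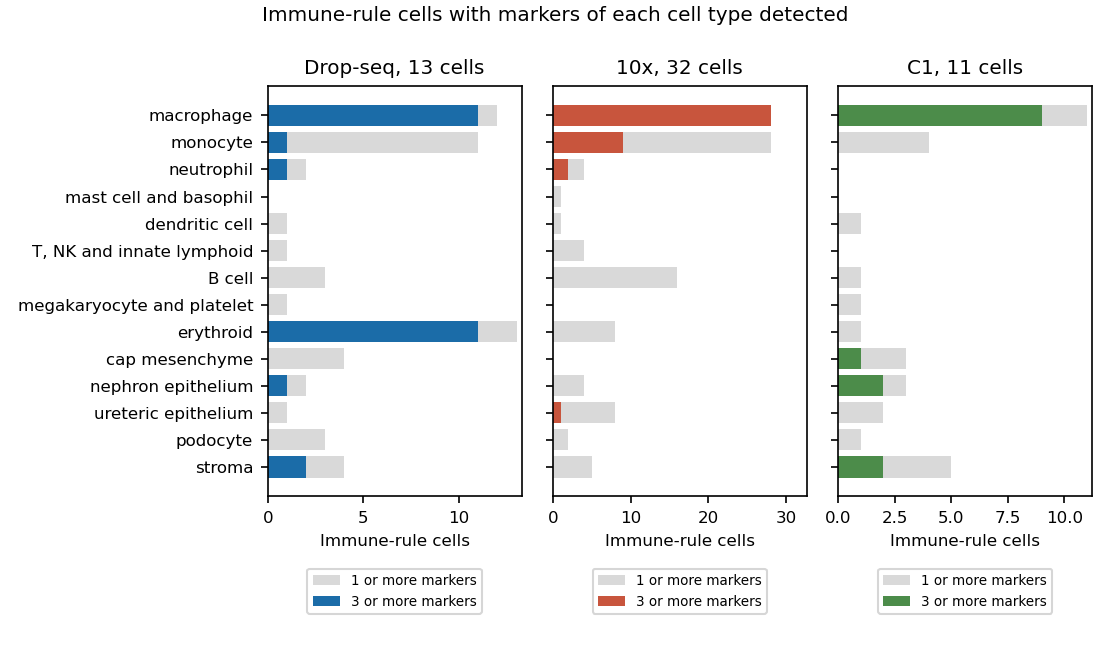
Number of immune-rule cells (horizontal axis) in which 1 or more (grey) or 3 or more (coloured) markers of each of 14 cell types were detected, in the 3 libraries. Macrophage markers reach 3 in 11, 28 and 9 cells, and erythroid markers reach 3 in 11 Drop-seq cells and in none of the other libraries.

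Markers of other cell types were seen in some of the same cells. Markers of a kidney class (cap mesenchyme, nephron epithelium, ureteric epithelium, podocyte or stroma) reached 3 in 8 immune-rule cells (3, 1 and 4), against 76.9%, 68.6% and 65.5% of all other cells. Among the 8 was the C1 cell of 869133 reads, with 4 of the 7 cap mesenchyme markers and 2 of the 6 endothelial genes detected. The summed cap mesenchyme level of C1 was 1173 CPM in immune-rule cells and 806 CPM in all other cells. The medians per cell were 16.2 and 197 CPM. C1 levels of immune-rule cells may therefore include reads of kidney cells, which was not tested. No doublet caller was run. Erythroid markers reached 3 in 11 of 13 Drop-seq immune-rule cells and in 74.3% of the other Drop-seq cells, against none of the 10x and C1 immune-rule cells. The summed erythroid level was 1020, 57.8 and 24.8 CPM in immune-rule cells and 14631, 806 and 487 CPM in all other cells. Single cells weigh heavily in these sums: the highest of the other Drop-seq cells stood at 880329 CPM. The median per cell was 1065 CPM in Drop-seq immune-rule cells and 738 CPM in the other Drop-seq cells. In 10x and C1 it was 0 in both groups. The sums, and the test of a globin gene that follows, therefore do not describe the typical cell. Hba-a1, a globin chain, stood at 288, 14.4 and 0 CPM in immune-rule cells and 3879, 333 and 0 CPM in all other cells (edgeR, log2 fold change -4.06, SE 0.34, adjusted p = 7.95e-11). In the test against all other cells described below, leaving out every cell with 3 or more markers of a kidney or erythroid class gave 319 genes higher and 270 lower, in place of 478 and 353. The part of these markers in single genes was not tested.

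Genes that accompany the markers were then sought by setting the summed counts of the immune-rule cells against those of all other cells of the same library. The test says which genes were found in the same cells as the markers, over 3 platforms, and not more. The edgeR quasi-likelihood test covered 13064 genes, without the 12 genes of the rule. It called 478 genes higher in immune-rule cells (3.66% of those tested) and 353 lower (2.7%) at an adjusted p of 0.05. Of the 831 called genes, 787 had 1 direction throughout the 3 libraries. The median log2 fold change of all tested genes was -0.46. Against the endothelial-rule cells, 10348 genes were tested, 453 were called higher (4.38%) and 551 lower (5.32%), with a median of -0.25. The counts moved with the libraries used: without 10x they were 274 higher and 93 lower against all other cells and 252 and 300 against endothelial-rule cells. Without C1 they were 617 and 573, and 710 and 594, and without Drop-seq 370 and 192, and 365 and 323. Of 10341 genes tested in both, 543 were called in both. Both comparisons use the same immune-rule cells, so this count is no independent evidence. Of 356 genes in the 15 functional lists, 320 passed the filter on low counts and 36 did not. A gene that passed through its counts in immune-rule cells alone had to differ, so the counts by list are descriptions. In the lists that had no gene called lower, 219 genes were tested. Of these, 12 were lower at an unadjusted p under 0.05, DESeq2 called 1 lower and limma-voom none. Over all alternatives the number called lower ran from 0 to 8, with 8 for limma on per-cell means, 6 without C1, and 4 both without the cells with kidney markers and without the 5% of cells of highest total count. Genes given below with a fold change alone were picked from the lists after their values were seen. Fits with a library left out rest on fewer sums, so a gene that passed only there still counts as not called.

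Receptors that bind antibodies, sugars and lipids, and the enzymes behind them, came with the markers in nearly every case. Of 21 tested genes of Fc receptors and their signalling, 19 were called higher and none lower, against 3.66% of all genes, and their median log2 fold change was 6.82. Fcgr1, the high-affinity IgG receptor, stood at 288, 457 and 119 CPM in immune-rule cells and 0.226, 0.282 and 0.326 CPM in all other cells (edgeR, log2 fold change 9.57, SE 0.50, adjusted p = 1.24e-15). It was detected in 10, 25 and 4 immune-rule cells. Fcgr3, an activating IgG receptor, stood at 310.5, 404 and 278 CPM in immune-rule cells and 0.849, 0.225 and 0.612 CPM in all other cells (edgeR, log2 fold change 9.20, SE 0.48, adjusted p = 4.55e-15). Trem2, a lipid receptor that signals through Tyrobp, stood at 33.3, 62.6 and 181 CPM in immune-rule cells and 0.0566, 0.338 and 0.0874 CPM in all other cells (edgeR, log2 fold change 9.60, SE 0.85, adjusted p = 3.92e-10). Its level was highest in C1, where Fcgr1 and Fcgr3 were lowest. The C-type lectin genes Clec4a2 (10.10), Clec4a1 (9.63) and Clec4a3 (8.50) and Lilrb4a (10.96) were also called higher on the log2 scale, but each has close relatives whose reads may have been shared. The signalling genes Vav1 (8.57), Btk (7.43) and Lyn (4.05) were called higher too, while the kinase gene Syk was not (edgeR, log2 fold change 2.2, SE 0.83, adjusted p = 0.112). Without C1 Syk was called (edgeR adjusted p = 0.0177).

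Scavenger receptors differed from gene to gene. Of 17 tested, 10 were called higher and none lower, with a median of 3.41. Mrc1, the mannose receptor CD206, stood at 743, 197 and 904 CPM in immune-rule cells and 0.566, 0.902 and 1.65 CPM in all other cells (edgeR, log2 fold change 9.08, SE 0.43, adjusted p = 3.96e-15). The groups were far apart in every library, and the 10x level in immune-rule cells was below those of the other libraries. Lyve1, a hyaluronan receptor of a perivascular macrophage type and of lymphatic vessels, stood at 77.6, 91.5 and 445 CPM in immune-rule cells and 1.36, 2.82 and 1.61 CPM in all other cells (edgeR, log2 fold change 6.51, SE 0.65, adjusted p = 5.27e-06), and was detected in 3, 4 and 6 cells. Msr1 (7.68), Clec4n (10.31), Folr2 (6.89), Cd68 (6.24), Stab1 (5.71) and Cd36 (4.92) were called higher on the log2 scale. The receptors that bind dying cells through Gas6 did not pass the test: Mertk had a log2 fold change of 1.23 (edgeR adjusted p = 0.629), Axl of 0.86 (edgeR adjusted p = 0.274) and Tyro3 of -1.57 (edgeR adjusted p = 0.555). Gas6 itself, the bridging ligand, was called higher at 199.6, 135 and 30.8 CPM in immune-rule cells and 8.78, 18.3 and 4.03 CPM in all other cells (edgeR, log2 fold change 3.41, SE 0.51, adjusted p = 8.42e-06). Timd4, another receptor for dying cells and a mark of long-lived resident macrophages, had 0 UMIs in Drop-seq and 10x immune-rule cells and 16 reads in C1.

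Complement genes split in a like way. Of 10 tested, 5 were called higher and none lower, with a median of 5.75. C1qa stood at 699, 1069 and 119 CPM in immune-rule cells and 0.679, 0.451 and 0.146 CPM in all other cells (edgeR, log2 fold change 10.22, SE 0.41, adjusted p = 8.28e-19) and was detected in 11, 22 and 5 immune-rule cells, against 0.513%, 0.360% and 0% of all other cells. C1qc stood at 809, 1146 and 488 CPM in immune-rule cells and 0.396, 0.394 and 2.09 CPM in all other cells, a difference of like size that did not pass (edgeR, log2 fold change 9.78, SE 1.3, adjusted p = 0.0892) but did so in 13 of 22 alternative settings, among them each one that left out a library (edgeR adjusted p of at most 2.24e-05). C1qa and C1qc lie beside C1qb on chromosome 4, at 136895916-136898844, 136889801-136892936 and 136880126-136886200 for C1qa, C1qc and C1qb in GRCm38. The receptors for the fragments C5a and C3a were called higher as well. C5ar1 stood at 99.8, 101 and 49.6 CPM in immune-rule cells and 0, 0 and 0.134 CPM in all other cells (edgeR, log2 fold change 10.00, SE 0.95, adjusted p = 2.37e-09), and with no UMI in the other cells its level was at least 587-fold higher in Drop-seq and at least 598-fold higher in 10x, against a floor of 3 counts per library. C3ar1 stood at 122, 207 and 64.8 CPM in immune-rule cells and 0.283, 0.0564 and 1.05 CPM in all other cells (edgeR, log2 fold change 8.06, SE 1.03, adjusted p = 0.00176). Cfp, or properdin, a regulator of the alternative pathway, was higher by 4.83 on the log2 scale. Itgam, the complement receptor chain CD11b, was not called (edgeR, log2 fold change 6.67, SE 3.90, adjusted p = 0.484). It stood at 144, 57.8 and 12.4 CPM in immune-rule cells and 94.9, 0.0564 and 0.0117 CPM in all other cells, so the other cells of Drop-seq were far above those of the other libraries, and without Drop-seq it was called (edgeR adjusted p = 1.2e-05).

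**Figure D2:**
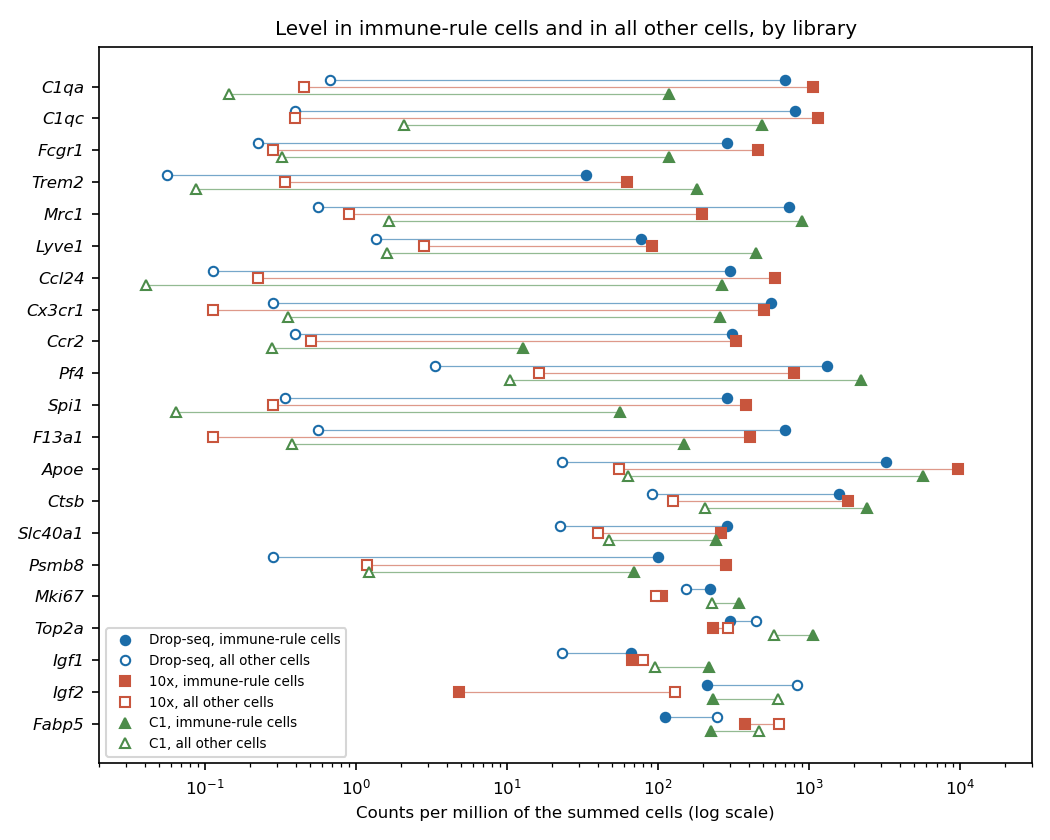
Level of 21 genes in CPM of the summed cells (log axis), in immune-rule cells (filled) and all other cells (open), with colour and shape for the library. Receptors, chemokines and C1q lie far apart in all 3 libraries, Ctsb and Slc40a1 less so, and the 2 cycle genes Mki67 and Top2a overlap, with Igf2 and Fabp5 lower in immune-rule cells.

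Lysosomal genes were higher by smaller steps, and other kidney cells had many of them too. Of 29 tested, 22 were called higher and none lower, with a median of 2.21. Ctsb, a cathepsin, stood at 1586, 1824 and 2425 CPM in immune-rule cells and 91.6, 125 and 206 CPM in all other cells (edgeR, log2 fold change 3.85, SE 0.22, adjusted p = 5.28e-15), and was in 13 of 13, 29 of 32 and 10 of 11 immune-rule cells. Ctsc stood at 466, 871 and 454 CPM in immune-rule cells and 9.29, 10.9 and 16.4 CPM in all other cells (edgeR, log2 fold change 5.58, SE 0.34, adjusted p = 4.97e-14). Lgmn, the protease legumain, stood at 898, 679 and 233 CPM in immune-rule cells and 41.2, 44.0 and 17.0 CPM in all other cells (edgeR, log2 fold change 4.06, SE 0.29, adjusted p = 8.13e-13), with C1 below the droplet libraries. Laptm5, a lysosomal membrane protein of blood cells, had the largest step of the called lysosomal genes (edgeR, log2 fold change 7.71, SE 0.37, adjusted p = 1.5e-16). Psap (2.82), Hexa (2.76), Lipa (2.73), Grn (2.72), Ctsd (2.48), Cst3 (2.21), Lamp1 (1.76) and Npc2 (0.86) were called higher on the log2 scale. Ctss, a cathepsin of antigen-presenting cells, stood at 499, 775 and 305 CPM in immune-rule cells and 0.226, 0.169 and 2.68 CPM in all other cells, which did not pass (edgeR, log2 fold change 9.38, SE 1.83, adjusted p = 0.172) but did without 10x (edgeR adjusted p = 5.45e-32) or C1 (6.29e-128). Npc2 was not called without Drop-seq (edgeR adjusted p = 0.102) or 10x (0.66). Ctsl, another cathepsin, stood at 310.5, 245 and 152 CPM in immune-rule cells and 234, 229 and 190.0 CPM in all other cells and did not pass (edgeR, log2 fold change 0.05, SE 0.28, adjusted p = 0.94).

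Lipid and iron handling genes were higher in part. Apoe, the apolipoprotein that carries cholesterol out of macrophages, stood at 3249, 9699 and 5661 CPM in immune-rule cells and 23.3, 55.1 and 63.3 CPM in all other cells (edgeR, log2 fold change 7.03, SE 0.24, adjusted p = 2.28e-20), and was detected in 12, 29 and 11 immune-rule cells. Of 17 lipid genes tested, 10 were called higher and 1 lower. The lower one was Fabp5, a fatty acid carrier, at 111, 375 and 223 CPM in immune-rule cells and 247, 633 and 466 CPM in all other cells (edgeR, log2 fold change -0.95, SE 0.26, adjusted p = 0.0232), and its call was lost whichever library was left out (edgeR adjusted p = 0.27, 0.256 and 0.0707). Of the leukotriene and prostaglandin genes in this list, Ltc4s (8.14), Alox5ap (5.95), Hpgds (5.91) and Ptgs1 (3.14) were called higher on the log2 scale. Lta4h was not called (-0.50, edgeR adjusted p = 0.583) and Alox5 did not pass the count filter. Of 15 iron and haem genes, 8 were called higher and none lower. Slc40a1, the iron exporter ferroportin, stood at 288, 259.9 and 244 CPM in immune-rule cells and 22.5, 40.0 and 47.7 CPM in all other cells (edgeR, log2 fold change 2.89, SE 0.34, adjusted p = 1.04e-07). Its libraries were close to each other. Trf, or transferrin, was higher by 6.70 and Slc11a1, an iron pump of phagosomes, by 6.48 on the log2 scale. The ferritin chains Ftl1 (1.91) and Fth1 (1.64) were higher too. Hmox1, which breaks down haem, stood at 333, 404 and 0.459 CPM in immune-rule cells and 6.28, 15.8 and 0.559 CPM in all other cells and did not pass (edgeR, log2 fold change 4.23, SE 1.23, adjusted p = 0.194), but did whichever library was left out (edgeR adjusted p of at most 0.0312).

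Chemokine genes had the highest median of all lists, 7.85. Of 17 tested, 11 were called higher and none lower. Ccl24, an eosinophil-attracting chemokine made by resident macrophages, stood at 299, 597 and 265 CPM in immune-rule cells and 0.113, 0.225 and 0.0408 CPM in all other cells (edgeR, log2 fold change 11.98, SE 0.49, adjusted p = 6.87e-19). It was in 10, 18 and 5 immune-rule cells. Cx3cr1, the fractalkine receptor of tissue macrophages, stood at 565, 505 and 259 CPM in immune-rule cells and 0.283, 0.113 and 0.355 CPM in all other cells (edgeR, log2 fold change 10.44, SE 0.47, adjusted p = 1.99e-16). Ccr2, the receptor that draws monocytes into tissue, stood at 310.5, 327 and 12.9 CPM in immune-rule cells and 0.396, 0.507 and 0.280 CPM in all other cells (edgeR, log2 fold change 8.02, SE 1.01, adjusted p = 0.00716), and in C1 it was found in 1 cell. Pf4 stood at 1308, 794 and 2229.6 CPM in immune-rule cells and 3.34, 16.4 and 10.5 CPM in all other cells (edgeR, log2 fold change 7.33, SE 0.86, adjusted p = 0.047), and since Pf4 is also made by megakaryocytes, Ppbp, another platelet chemokine, is given beside it: it was in 1, 0 and 0 immune-rule cells. Ccl2 (7.14), Ccl12 (10.44), Ccl3 (8.89), Ccl4 (9.45) and Ccl6 (8.75) were called higher on the log2 scale. The ligands Cxcl12 (edgeR, log2 fold change -1.43, SE 0.55, adjusted p = 0.127) and Cx3cl1 (edgeR adjusted p = 0.272), which attract cells with Cxcr4 and Cx3cr1, were not called. Cx3cl1 had no count in immune-rule cells and was at least 2.01-fold lower there in C1, against a floor of 3 counts, and Cxcl12 was called lower without C1 (edgeR adjusted p = 0.00293).

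Receptors for several cytokines were higher in immune-rule cells. Of 27 cytokine and receptor genes tested, 17 were called higher, none lower and 10 not at all, with a median of 2.99. Without the 10x library 5 of 23 were called higher, and with 2 or more markers required 6 of 27. Receptors for interferon gamma (Ifngr1 2.50, Ifngr2 1.48), interleukin 10 (Il10ra 7.81, Il10rb 2.99), interleukin 6 (Il6ra 6.92) and colony-stimulating factors (Csf2ra 1.94, Csf2rb 6.29, Csf3r 5.31) were called higher on the log2 scale. Il6st, the signalling chain of the interleukin 6 receptor, was not (edgeR, log2 fold change -2.49, SE 1.13, adjusted p = 0.197). The called ligands were Il18 (6.42), Il16 (5.06), Tgfb1 (3.72) and Tnf, which stood at only 11.1, 4.81 and 6.43 CPM (edgeR, log2 fold change 6.54, SE 2.0, adjusted p = 0.0433). The Tnf level rested on 1 UMI in Drop-seq, 1 UMI in 10x and 14 reads in C1, where 0 cells reached the detection level. All other cells held 4 UMIs, 6 UMIs and 0 reads of it. Without 10x the calls for Csf2ra (edgeR adjusted p = 0.326), Csf3r (0.211), Ifngr2 (0.543), Il10rb (0.0755), Tgfb1 (0.0546) and Tnf (0.0532) were lost, and without Drop-seq those for Csf3r (0.37) and Tnf (0.164). Csf1, a ligand of Csf1r, had no count in immune-rule cells of any library and stood at 4.47, 4.85 and 5.48 CPM in all other cells. With a floor of 3 counts, it was at least 3.98-fold lower in the immune-rule cells of C1, and Drop-seq and 10x were too shallow for a bound (edgeR adjusted p = 0.125). Il34, the other ligand of the receptor, was at 0 in the immune-rule cells and at 0.623, 0.620 and 0.0816 CPM in all other cells.

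Myeloid transcription factors were higher in part. Of 27 tested, 12 were called higher and none lower, with a median of 1.57. Without 10x it was 7 of 25, and with 2 or more markers required 7 of 28. Spi1 stood at 288, 385 and 56.5 CPM in immune-rule cells and 0.340, 0.282 and 0.0641 CPM in all other cells (edgeR, log2 fold change 9.94, SE 0.50, adjusted p = 1.99e-16), and was detected in 10, 26 and 2 immune-rule cells, against 0.256%, 0.180% and 0% of all other cells. The partner Irf8, which guides monocyte and macrophage development, stood at 144, 481 and 49.2 CPM in immune-rule cells and 1.93, 3.94 and 2.76 CPM in all other cells (edgeR, log2 fold change 5.74, SE 0.53, adjusted p = 1.18e-07). Ikzf1 (6.83), Irf5 (5.24), Runx1 (3.75), Cebpb (3.63), Maf (3.53), Mef2c (2.50) and Zeb2 (1.57) were called higher on the log2 scale. Without 10x Cebpb (edgeR adjusted p = 0.511), Runx1 (0.33) and Zeb2 (0.266) lost their calls, and without Drop-seq Runx1 (0.425) and Zeb2 (0.13). Stat3, which passes on interleukin signals, was not called (edgeR, log2 fold change 0.52, SE 0.87, adjusted p = 0.781).

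Genes of leukocyte movement and of the oxidase that makes reactive oxygen were higher in most cases. Of 32 tested, 25 were called higher and 1 lower, with a median of 6.79. Coro1a, an actin regulator of blood cells, stood at 399, 1237 and 20.2 CPM in immune-rule cells and 3.68, 6.03 and 0.268 CPM in all other cells (edgeR, log2 fold change 6.93, SE 0.37, adjusted p = 1.23e-15). Rac2, the blood cell form of a small GTPase of movement and oxidase, stood at 244, 698 and 249.9 CPM in immune-rule cells and 1.25, 1.75 and 2.91 CPM in all other cells (edgeR, log2 fold change 7.51, SE 0.44, adjusted p = 3.44e-12). The oxidase subunits Ncf1 (6.81), Ncf4 (7.84) and Cyba (2.26) were called higher on the log2 scale, and the catalytic subunit Cybb was not, at 122, 183 and 106 CPM in immune-rule cells and 2.15, 0 and 0.163 CPM in all other cells (edgeR, log2 fold change 8.64, SE 1.75, adjusted p = 0.12), although it passed whichever library was left out (edgeR adjusted p of at most 1.02e-12). Was and Wasl, a pair of related genes, were called in opposite directions. Was, the actin nucleation factor of blood cells, was higher by 5.73, and Wasl, its form in other tissues, stood at 55.4, 14.4 and 13.3 CPM in immune-rule cells and 114, 56.6 and 49.0 CPM in all other cells (edgeR, log2 fold change -1.64, SE 0.51, adjusted p = 0.0477). The call for Wasl held in 7 of 22 alternative settings and in none that left out a library (edgeR adjusted p = 0.293, 0.273 and 0.0768), and that for Was was lost without 10x (0.118).

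Antigen presentation genes were higher in part. Of 17 antigen presentation genes tested, 7 were called higher and none lower, with a median of 2.34. B2m, the light chain of class I molecules, stood at 1575, 1377 and 904 CPM in immune-rule cells and 137, 173 and 172 CPM in all other cells (edgeR, log2 fold change 2.97, SE 0.24, adjusted p = 1.87e-11), and H2-D1, a class I heavy chain, was higher by 2.97. The class I heavy chain gene H2-K1 was not called (edgeR, log2 fold change 1.68, SE 0.60, adjusted p = 0.0945), but was without C1 (edgeR adjusted p = 2.05e-06), and H2-M3 (edgeR adjusted p = 0.146) and H2-T23 (0.5) were not called. Psmb8, a subunit of the immunoproteasome that cuts peptides for class I, stood at 99.8, 284 and 69.8 CPM in immune-rule cells and 0.283, 1.18 and 1.22 CPM in all other cells (edgeR, log2 fold change 7.19, SE 0.57, adjusted p = 2.42e-11). Class II genes did not pass either, and the classes were not tested against each other. Cd74 stood at 11.1, 327 and 4.59 CPM in immune-rule cells and 2.49, 3.44 and 2.53 CPM in all other cells (edgeR, log2 fold change 3.51, SE 1.91, adjusted p = 0.415) and H2-Aa at 0, 72.2 and 15.2 CPM in immune-rule cells and 3.11, 2.65 and 12.1 CPM in all other cells (edgeR, log2 fold change 1.96, SE 1.18, adjusted p = 0.347). Without C1 both were called higher (edgeR adjusted p = 2.64e-20 and 0.00204). In 10x, 58 of the 68 Cd74 UMIs and all 15 H2-Aa UMIs of immune-rule cells came from 1 cell, described below. Genes known from microglia, the macrophages of the brain, were mixed, with 5 of 13 called higher (3 of 11 without 10x), among them Fcrls (8.67), Gpr34 (7.92), P2ry6 (7.27) and P2rx4 (2.92) on the log2 scale. Tmem119 (edgeR, log2 fold change -2.54, SE 1.21, adjusted p = 0.226), Olfml3 (edgeR, log2 fold change -1.98, SE 0.83, adjusted p = 0.165) and Sparc (edgeR, log2 fold change -2.30, SE 0.60, adjusted p = 0.11) were not called. P2rx4 was not called without 10x (edgeR adjusted p = 0.151) or Drop-seq (0.0581). Sparc was called lower whichever library was left out (edgeR adjusted p of at most 0.0297), and Olfml3 without C1 (0.00279).

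**Figure D3:**
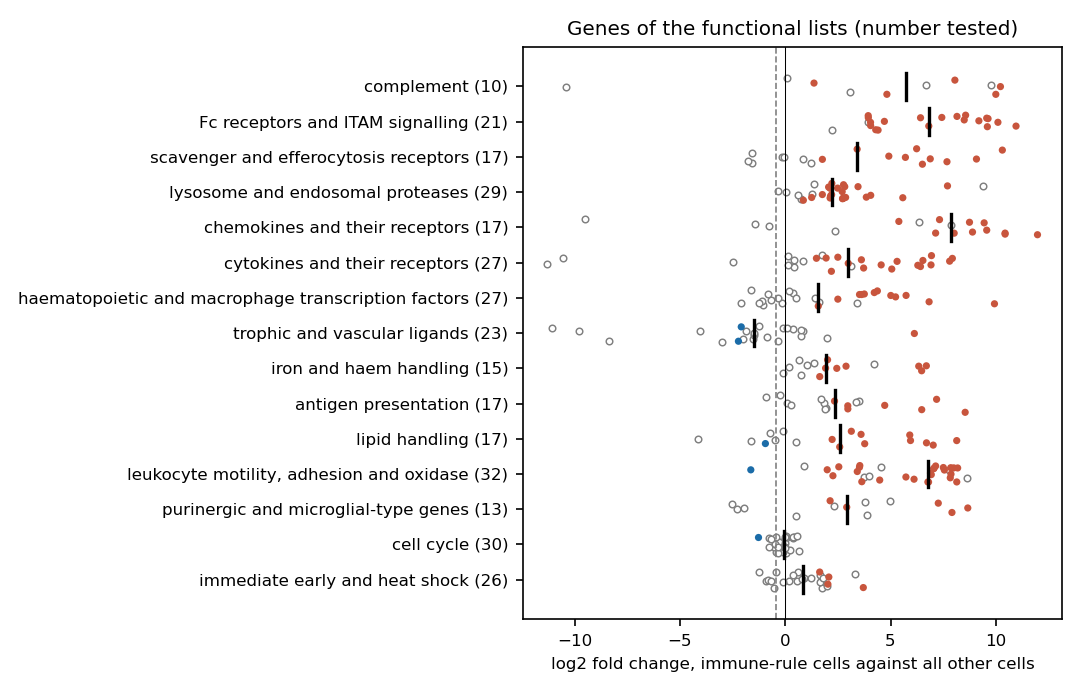
Log2 fold change of immune-rule cells against all other cells for each tested gene of 15 functional lists. Filled red points are called higher, filled blue ones lower and open ones not called; black bars are list medians and the dashed line the median of all genes, -0.46. The chemokine list has the highest median, 7.85, and the cell cycle list sits at -0.08.

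Secreted growth and vessel factors were mostly not called. Of 23 tested, 1 was called higher and 2 lower, against 3.66% and 2.7% of all genes. At such shares few calls would be met in any list of this size. The median was -1.47, or -1.12 with 3 genes without a count in immune-rule cells set at their bound. The number lower was 1 without Drop-seq or 10x and 4 without C1. Mmp9, a matrix protease, stood at 22.2, 33.7 and 27.1 CPM in immune-rule cells and 0.736, 1.01 and 0.0990 CPM in all other cells (edgeR, log2 fold change 6.13, SE 1.23, adjusted p = 0.000844). Igf2, the fetal insulin-like growth factor, stood at 211, 4.81 and 230.2 CPM in immune-rule cells and 833, 131 and 628 CPM in all other cells (edgeR, log2 fold change -2.09, SE 0.35, adjusted p = 0.000278), and in 10x it was found in 1 of 32 immune-rule cells. Pdgfa, a ligand for stromal cells, stood at 33.3, 4.81 and 11.5 CPM in immune-rule cells and 97.2, 65.3 and 48.3 CPM in all other cells (edgeR, log2 fold change -2.23, SE 0.57, adjusted p = 0.0117). Its call was lost without Drop-seq (edgeR adjusted p = 0.0928) and without 10x (0.208). Igf1 was not called against all other cells, at 66.5, 67.4 and 219 CPM in immune-rule cells and 23.2, 79.6 and 95.8 CPM in all other cells (edgeR, log2 fold change 0.83, SE 0.41, adjusted p = 0.244), but was lower than in endothelial-rule cells (edgeR, log2 fold change -1.44, SE 0.33, adjusted p = 0.000624), a call lost without Drop-seq (0.137) or 10x (0.0625). Vegfa stood at 11.1, 0 and 19.3 CPM in immune-rule cells and 28.8, 4.28 and 37.7 CPM in all other cells and was not called (edgeR, log2 fold change -1.25, SE 0.91, adjusted p = 0.447). Gdnf, the signal for ureteric branching, and its receptor Ret were not called (edgeR adjusted p = 0.363 and 0.101). Both had no UMI in the immune-rule cells of Drop-seq and 10x, and Gdnf reached the detection level in 1 C1 cell and was called lower without C1 (edgeR adjusted p = 0.0499).

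Cell cycle genes did not pass the test, apart from Cdc20. Of 30 tested, none was called higher and 1 lower by edgeR, against 3.66% and 2.7% of all genes, so the counts alone do not set the list apart. The median was -0.08. None was higher at an unadjusted p under 0.05 either, and DESeq2 and limma-voom called none higher. Mki67, which marks cycling cells, stood at 222, 106 and 343 CPM in immune-rule cells and 155, 96.8 and 229 CPM in all other cells (edgeR, log2 fold change 0.44, SE 0.30, adjusted p = 0.411). Top2a, a topoisomerase of dividing cells, stood at 299, 231 and 1064 CPM in immune-rule cells and 445, 290.3 and 586 CPM in all other cells (edgeR, log2 fold change 0.04, SE 0.28, adjusted p = 0.948), lower than in the other cells in Drop-seq and 10x and higher in C1, and without C1 its log2 fold change was -0.45 (edgeR adjusted p = 0.466). The C1 cell of 869133 reads held 63.3% of the Top2a reads and 62.1% of the Mki67 reads of the C1 immune-rule cells. That cell also had 4 cap mesenchyme markers detected, so these reads cannot be assigned to a macrophage alone. Cdc20, an activator of mitotic exit, stood at 66.5, 67.4 and 46.4 CPM in immune-rule cells and 211, 166 and 99.9 CPM in all other cells (edgeR, log2 fold change -1.29, SE 0.36, adjusted p = 0.0243), and was called in 12 of 22 alternative settings, but not without Drop-seq (edgeR adjusted p = 0.329) or 10x (0.245). Mki67 or Top2a was detected in 9, 10 and 7 immune-rule cells, 26 of 56, against 73.7%, 55.4% and 65.7% of all other cells. With every cell thinned to 3000 UMIs or 50000 reads, which left 13, 26 and 10 immune-rule cells and 1950, 2023 and 842 others, Mki67 was in 38.5%, 15.4% and 10.0% of immune-rule cells and in 30.6%, 17.4% and 17.9% of the others. Thinned Top2a was in 38.5%, 26.9% and 50%, against 50.5%, 35.2% and 46.9%. Of 26 immediate early and heat shock genes, which react to handling, 4 were called higher, none lower and 22 not at all, against 3.66% of all genes called higher. Their median was 0.85, against -0.46 for all genes, and 19 had a positive log2 fold change. The called ones were Zfp36 (3.71), Junb (2.07), Klf2 (2.02) and Klf6 (1.63). Without 10x the number called higher was 2 of 26 and without C1 8 of 24, and Junb (edgeR adjusted p = 0.531), Klf2 (0.208) and Klf6 (0.284) were among those lost without 10x.

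Outside the lists, the 15 called genes of highest fold change among those detected in 10% or more of the immune-rule cells of each library included 4 of the Ms4a family of membrane proteins. Ms4a6b stood at 377, 356 and 339.5 CPM in immune-rule cells and 0.113, 0.0564 and 0.443 CPM in all other cells (edgeR, log2 fold change 10.56, SE 0.51, adjusted p = 3.96e-15), Ms4a6c was higher by 9.64, Ms4a6d by 10.11 and Ms4a7 by 9.79 on the log2 scale. These genes lie on chromosome 19 between 11321039 (Ms4a7) and 11604804 (Ms4a6d) in GRCm38, and the 3 Ms4a6 genes are similar enough that reads may have been shared. F13a1 stood at 699, 409 and 149 CPM in immune-rule cells and 0.566, 0.113 and 0.379 CPM in all other cells (edgeR, log2 fold change 9.78, SE 0.52, adjusted p = 1.45e-11). Aif1, the calcium-binding protein Iba1 used to stain macrophages, stood at 466, 626 and 496 CPM in immune-rule cells and 0.226, 0.733 and 1.74 CPM in all other cells (edgeR, log2 fold change 9.32, SE 0.47, adjusted p = 6.76e-12), and was in 11, 27 and 9 immune-rule cells. Adgre1, the F4/80 antigen, stood at 111, 139.6 and 141 CPM in immune-rule cells and 0.113, 0.0564 and 0.460 CPM in all other cells (edgeR, log2 fold change 9.22, SE 0.65, adjusted p = 1.19e-12), and was in 5, 18 and 4. Ly86, a partner of a Toll-like receptor relative, stood at 798, 91.5 and 153 CPM in immune-rule cells, with Drop-seq well above the rest. Gpr65, Cryba4, Cd84, Ifi207, Clec12a, Hk3 and AF251705 were higher by 8.98 to 9.89 on the log2 scale. Cryba4, a lens crystallin gene, was among them with counts in 4, 4 and 2 immune-rule cells and at 55.4, 19.3 and 60.2 CPM in immune-rule cells and 0.0566, 0.0564 and 0.0408 CPM in all other cells.

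The genes lowest in immune-rule cells outside the lists had no count in them in any library. They were Pcp4, Esam, Smoc2, Keg1, Foxd1, Rhou, Ctla2a and Bmper, and their fitted fold changes depend on the prior count and are not given. Against a floor of 3 counts per library, Pcp4, a calmodulin regulator, was at least 2.38-fold, 5.46-fold and 20.7-fold lower (edgeR adjusted p = 1.06e-05). Foxd1, the stromal progenitor factor, was at least 4.24-fold lower in 10x and 15.9-fold in C1 (edgeR adjusted p = 0.000853), and Esam, an endothelial adhesion molecule, at least 5.48-fold and 22.0-fold (edgeR adjusted p = 0.000186). In Drop-seq neither bound could be set at this depth. Calls were lost for Keg1 (edgeR adjusted p = 0.149), Rhou (0.0841) and Bmper (0.33) without C1, for Ctla2a without 10x (0.0691) and for Bmper without Drop-seq (0.0646). Calb1, a ureteric epithelial gene, stood at 0, 0 and 0.459 CPM in immune-rule cells and 157, 172 and 219 CPM in all other cells (edgeR adjusted p = 7.16e-11). It was at least 4.72-fold lower in Drop-seq and 11.9-fold in 10x, against the same floor, and had 1 read in C1.

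Endothelium is the class next to these cells in the rule. Against it, of the Fc receptor genes 18 of 21 were called higher, of the lysosomal genes 22 of 28 and of the chemokine genes 12 of 15, against 4.38% of all genes. Fcgr1 had no count in endothelial-rule cells and was at least 97.3-fold, 634-fold and 789-fold higher in immune-rule cells, against a floor of 3 counts per library (edgeR adjusted p = 5.81e-41). On the log2 scale C1qa was higher by 11.53 (edgeR adjusted p = 3.94e-51) and C1qc by 8.94 (edgeR adjusted p = 6.79e-51). Mrc1 did not pass there, at 743, 197 and 904 CPM in immune-rule cells and 0, 2.16 and 0.251 CPM in endothelial-rule cells (edgeR, log2 fold change 9.56, SE 1.79, adjusted p = 0.155), but did whichever library was left out (edgeR adjusted p of at most 0.0112). Some lists had lower members in this comparison, with 5.32% of all genes called lower. Among growth factors Igf1, Igf2, Vegfc, Hbegf and the receptor Nrp2 were lower, 5 of 18 tested, with Igf2 at -2.96 and Nrp2 at -4.59. In the scavenger list Cd93 (-3.11) and Mfge8 (-1.58), a secreted protein that bridges dying cells to phagocytes, and among transcription factors Fli1 (-1.58) and Tal1 (-4.56), both shared by blood and vessel lineages, were lower. Without 10x the calls for Mfge8 (edgeR adjusted p = 0.559), Fli1 (0.0531), Tal1 (0.0545) and Vegfc (0.167) were lost, and those for Mfge8 (0.209), Fli1 (0.481) and Tal1 (0.215) also without Drop-seq. That for Tal1 was lost without C1 as well (edgeR adjusted p = 0.114). Among cytokine receptors Il6st was lower (-2.98, edgeR adjusted p = 0.0462), a call lost without 10x (0.104) or C1 (0.613). Klf2, the flow-induced factor of vessels, was not called against endothelium (edgeR, log2 fold change -0.05, SE 0.37, adjusted p = 0.976), and neither was Mef2c (edgeR, log2 fold change 0.41, SE 0.30, adjusted p = 0.518).

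The immune-rule cells were not all alike, and one divide ran along the C1q genes. Of the 56, 41 had 2 or more of C1qa, C1qb and C1qc detected, 4 had 1 and 11 had none (2, 8 and 1). These groups were formed from the values and are described with no test. C1qb, Lyz2 and Csf1r are genes of the rule, so a cell without C1qb needed 3 of the other rule genes to be taken. Mrc1 was detected in 31 of the 41 and in 0 of the 11, Pf4 in 30 and 0, and Lyve1 in 11 and 0. Cx3cr1 was in 35 of the 41 and 4 of the 11, F13a1 in 28 and 3, Ccr2 in 14 and 6, and Mki67 in 18 and 1. These counts pool the platforms, while 8 of the 11 were from 10x, so platform and C1q detection are mixed in them. In 10x alone Mrc1 was in 12 of 22 cells with 2 or more C1q genes and 0 of 8 without. There Pf4 was in 13 and 0, Lyve1 in 4 and 0, and Cx3cr1 in 21 and 3. F13a1 was in 17 and 2, Ccr2 in 10 and 4, and Mki67 in 7 and 1. In 10x the median Lyz2 level was 927 CPM in the 22 cells with 2 or more C1q genes (from 0 to 3336) and 12253 CPM in the 8 without (from 0 to 21836). Apoe ran the other way, with a median of 11594 CPM (1327 to 37212) in the former and 706 CPM (0 to 5313) in the latter. Csf1r was in 20 of the 22 and in 2 of the 8. The 8 held 2177, 2473, 2897, 3757, 3883, 8094, 8877 and 10011 UMIs, and the median of all 10x immune-rule cells was 6471. Detection in these groups was not brought to equal depth, and the part of depth was not tested. The 8 were mixed: 2 had neutrophil markers, 4 had 3 or more macrophage markers, and the other 2 are the cells with lymphoid and with mast cell or basophil genes described below. Without the 2 neutrophil-marked cells the medians were 6651 CPM for Lyz2 and 1937 CPM for Apoe, and in the 4 cells with macrophage markers 12662 and 2668 CPM. The higher Lyz2 was not seen beyond 10x once neutrophil-marked cells were set aside. The remaining Drop-seq cell without C1q had 523 CPM, within the 0 to 1281 CPM of those with 2 or more C1q genes. The C1 cell without C1q had 0, against a median of 131 CPM. Apoe stood at 105 and 1572 CPM in these cells, against medians of 4180 and 5124 CPM. Mrc1 and Ccr2, marks of resident macrophages and of monocyte-derived cells, overlapped: 8 cells had both, 25 only Mrc1 and 14 only Ccr2. Of the 14 with Ccr2 alone, 12 were from 10x, where 12 of 32 cells had Mrc1, against 11 of 13 in Drop-seq and 10 of 11 in C1.

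**Figure D4:**
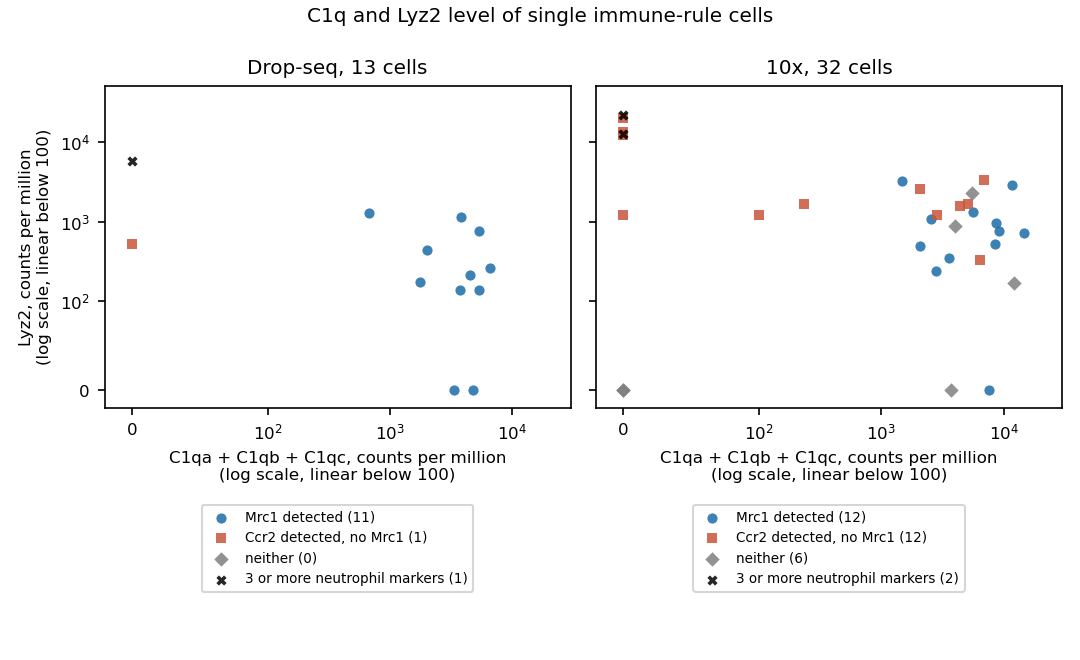
Single immune-rule cells of Drop-seq (left, 13 cells) and 10x (right, 32 cells), with the summed C1qa, C1qb and C1qc level on the horizontal axis and the Lyz2 level on the vertical axis, both in CPM of the cell on a log scale that is linear below 100. Cells with Mrc1 all lie at the right, and the cells with 3 or more neutrophil markers lie at 0 C1q with high Lyz2.

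A few cells stood apart from the macrophages, and they were singled out after their values were seen. In 10x, 2 cells with neutrophil markers held 206 and 141 UMIs of S100a8 and 223 and 175 UMIs of S100a9, the calprotectin chains, of 2473 and 2177 UMIs in all. They also held 112 and 7 UMIs of Ngp, 45 and 6 of Camp, 46 and 12 of Lcn2 and 48 and 44 of Retnlg, all granule or neutrophil products, and none of Apoe or Csf1r. The other 30 immune-rule cells of 10x had 1 UMI of S100a8 and 0 of S100a9. A Drop-seq cell of 4172 UMIs held all 29 S100a8, 45 S100a9 and 47 Retnlg UMIs of its library's immune-rule cells. S100a8 (edgeR, log2 fold change 8.21, SE 0.45, adjusted p = 3.3e-14) and S100a9 (edgeR, log2 fold change 8.02, SE 0.41, adjusted p = 3.35e-16) were called higher over all immune-rule cells, although C1 had no read of either. With all cells of 3 or more neutrophil markers left out, neither gene passed the count filter. That removed these 3 cells and, among all other cells, 1 in Drop-seq and 1 in 10x. The call for both was also lost with 4 or more markers required (edgeR adjusted p = 0.224 and 0.554).

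Other single cells carried genes of further blood lineages. A Drop-seq cell of 9568 UMIs had 27 UMIs of Mpo, 14 of Prtn3, 5 of Ctsg and 3 of Elane, granule genes of young granulocytes and monocytes, with 7 of F13a1 and 10 of Plac8. A 10x cell of 3757 UMIs had 58 UMIs of Cd74, 15 of H2-Aa, 9 of H2-Ab1 and 7 of H2-Eb1, together with 26 of Ltb, 7 of Cd4, 5 of Cd7, 5 of Tcf7 and 3 of Il7r, and none of Lyz2, Csf1r or Apoe. Ltb, Il7r, Cd4 and Cd7 are lymphoid genes and Cd74 and the H2 genes encode class II parts. The same cell had 3 ureteric markers. Another 10x cell, of 8877 UMIs, had 8 UMIs of Hdc and 6 of Cpa3, known from mast cells and basophils, with 33 of Plac8 and 149 of Ifitm1, and none of Lyz2 or Csf1r. Cd79b, best known as a B cell receptor chain, was in 3, 16 and 1 immune-rule cells and stood at 66.5, 106 and 29.9 CPM in immune-rule cells and 3.40, 4.90 and 4.20 CPM in all other cells (edgeR, log2 fold change 3.82, SE 0.71, adjusted p = 0.000316), with the call lost without 10x (edgeR adjusted p = 0.072). The B cell genes Cd79a, Ms4a1, Vpreb1, Vpreb3, Ebf1 and Pax5 were at 0 in all immune-rule cells, and 17 of the 20 cells with Cd79b had 2 or more C1q genes.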

How the data were processed

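RNA of single cells was counted in E14.5 mouse kidney, in 1 library each by Drop-seq, 10x Chromium and Fluidigm C1. The authors deposited raw counts per gene and cell (UMIs for Drop-seq and 10x, reads for C1), and these counts were used; normalised tables of the same libraries were also deposited and were not used. Reads were mapped with Bowtie2 2.2.7 (Drop-seq and C1) or Cell Ranger 1.3.0 (10x) to mm10, per the submitters' processing notes, with the counting tool and annotation for Drop-seq and C1 not given in the sources used here. Protocol text in the labels describes Drop-seq for all 3 libraries. The C1 table has no mitochondrial genes, so C1 totals leave them out, and C1 reads carry no UMIs, so copies made by PCR were counted. Every column of the tables was used (0 left out). Some genes are missing from 1 table and were not analysed there: Camp and Clec7a in Drop-seq, for example.

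The members and gene lists were chosen with earlier results of these data known. Gene symbols were brought to current names, and 18448 were shared by all tables. Cells needed 500 or more detected genes. No filter on mitochondrial counts and no doublet caller was used. Counts were summed per library and cell group and tested with the quasi-likelihood F test of edgeR 4.0.16 (R 4.3.3, robust, TMM, filterByExpr, 2-sided, library as a block) on 6 sums with 2 residual degrees of freedom, with Benjamini-Hochberg adjustment over all genes tested and a threshold of 0.05. Standard errors were taken as the size of the log2 fold change over the root of F. P-values measure only the spread between these 3 libraries, which may be technical. Fits that left out a library had fewer sums and fewer residual degrees of freedom. Their p-values, however small, measure still less of that spread. The test was run on simulated counts with known changes. These had the same spread for every gene, large changes in genes of higher counts only, and no uneven weight of single cells. The simulation therefore checks the code and does not show how reliable the calls are. DESeq2 1.42.0, limma 3.58.1 (voom, and per-cell means with a pseudocount of 0.01) and other filters, scalings and cell rules were alternatives. Levels are CPM of the summed cells. Intervals given with shares of immune-rule cells are exact Clopper-Pearson intervals at 95%.

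Named genes were the 12 of the rule, up to 4 called genes per list with the largest absolute log2 fold change and 1 direction in all libraries, any list gene called against its list's majority, the 15 highest and 8 lowest called genes outside the lists (the higher ones in 10% or more of the immune-rule cells of each library), and a fixed list described whether called or not. Others named were chosen after their values were seen. Results for some listed genes are not reported here. Tables and figures were made with Python 3.11.15, pandas 2.3.3, scipy 1.17.1 and matplotlib 3.10.9.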

Additional observations from a re-analysis of the deposited data

Results flagged for a closer look

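Top2a differed in direction between platforms. Its level in immune-rule cells divided by that in all other cells was 1.82 in C1 and 0.672 in Drop-seq, so the C1 and Drop-seq cells went opposite ways. The difference between the platforms was not tested. The C1 cell of 869133 reads, which also had 4 cap mesenchyme markers, held 63.3% of the Top2a reads of the C1 immune-rule cells. Its part in the result was not tested.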

How the results depend on the processing

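Counts of called genes depended on the test and on the libraries. Against all other cells, the 478 higher genes became 749 with limma-voom, 282 with no replicate block, 273 with 2 or more markers required, and 274 (without 10x) to 617 (without C1) with 1 library left out. The 353 lower genes became 87 with limma-voom, 1833 with limma on per-cell means, 52 with no replicate block, 191 with the HT and E14 name groups of C1 as separate blocks (which gave 347 higher), 70 with 2 or more markers, and 93 (without 10x) to 573 (without C1), with 192 without Drop-seq. Against endothelial-rule cells, the 453 higher genes became 1384 with limma-voom, 245 with no replicate block, 299 with the C1 name groups, 224 with 2 or more markers, and 252 (without 10x) to 710 (without C1). The 551 lower genes became 323 with DESeq2, 174 with no replicate block, 238 with the C1 name groups, 179 with 2 or more markers, 334 without cells that held 3 or more markers of a kidney or erythroid class, and 300 (without 10x) to 594 (without C1), with 323 without Drop-seq. The block is the library, which pairs the sums because both sums of a pair come from 1 library.

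Leaving out cells with kidney or erythroid markers, which removed more of the other cells than of the immune-rule cells, gave a share of 2 of 132 (1.52%, exact interval 0.184% to 5.37%) in Drop-seq, 31 of 720 (4.31%, 2.94% to 6.06%) in 10x and 7 of 310 (2.26%, 0.913% to 4.6%) in C1. Leaving out those with kidney markers only, an alternative added after seeing the data, gave 10 of 460 (2.17%), 31 of 729 (4.25%) and 7 of 312 (2.24%). The median of all genes and the split of higher and lower calls did not move past the limits of 0.1 (log2) and 10 percentage points with the other scalings. Without the cells with neutrophil markers, also added later, 489 genes were higher and 473 lower against all other cells. Of 95 named genes with a test, 86 were called, 47 of these in every one of up to 22 alternatives, and 39 lost the call in 1 or more. Mki67 changed sign to -0.013 without kidney or erythroid cells and to -0.25 without kidney cells. Top2a changed sign to -0.37 with per-cell means, -0.45 without C1 (0.44 without Drop-seq), -0.42 with 2 or more markers, -0.27 with C1 detection at 1 read, -0.26 without kidney or erythroid cells, -0.29 without kidney cells and -0.19 without the 5% of cells of highest total count. Neither Mki67 nor Top2a was called. The cause of these changes was not tested. The 13 and 11 immune-rule cells of Drop-seq and C1 limit what can be seen of low genes.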
